A study of Mus musculus with 8 samples.

Results

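Genes of glycolysis and of the response to low oxygen were followed in E17.5 mouse embryos, in skin of full thickness, from animals labelled as having or lacking the nuclear receptor PPARgamma. The 38 members were taken from a list of 19 enzymes, 3 transporters, 4 genes of the oxygen-sensing HIF system and 12 other genes that HIF is known to induce. A member was represented by the row of the deposited table whose platform annotation gave its symbol alone, and by the row with the highest mean where it had several. In all, 35 of the 38 members had such a row, among 19938 genes, and 34 of them were bright enough to be tested. Gapdh was listed only on rows shared with other symbols, Gpi1 and Eno1 had no row of their own, and the carbonic anhydrase Car9 lay under the brightness filter, at 5.22 to 5.32 in control skin and 5.06 to 5.48 in the other group. The 4 control RNAs came from embryos labelled wildtype for PPARgamma and the 4 others from embryos labelled PPARgamma null (PpargΔ/Δ), all on a mixed C57BL6/SV129 strain background, with 1 Affymetrix array for each individual RNA. The labels name neither the deleted part of the gene nor the means of deletion, and they give no litter or sex, so p-values measure only the spread between these RNAs. Values are deposited log2 intensities after RMA, a normalization that gives all arrays nearly the same distribution.

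Glycolysis splits glucose into pyruvate in a chain of cytosolic enzymes, and lactate dehydrogenase turns pyruvate into lactate when it is not oxidised in mitochondria. The transcription factor HIF, an oxygen-labile alpha subunit paired with a stable partner, is hydroxylated by prolyl hydroxylases and degraded when oxygen is present. When oxygen is scarce, HIF binds short DNA elements with the core ACGTG or GCGTG and raises glucose transporters, most glycolytic enzymes and genes of angiogenesis, mitophagy and collagen hydroxylation. Embryonic skin, with an epidermis that carries no vessels, is a tissue in which both programmes are known to be active.

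The cores to which HIF binds were not themselves used to choose the members, but known HIF targets were among those chosen. An excess of these cores is therefore no independent evidence about the list. RefSeq start sites on GRCm38.p6 were found for 34 of the 38 members, with 50 windows of the 250 bases before a start site, some of which overlap. ACGTG, read on both strands, stood in 46% of the member windows (23 of 50) and in 16.6% of all 32851 windows of that length (17.8% of those of protein-coding genes). GCGTG stood in 56% of the member windows and 28.2% of all windows (33.8% of those of protein-coding genes). The palindrome CACGTG, which holds ACGTG on both strands and is also the core of the E-box, stood in 12% against 6.02%. Member windows were also richer in G and C, at 61.3% against 53.2%, and the part of base composition in these shares was not tested. Of the 34 members with a window, 32 had ACGTG or GCGTG in at least 1 of them; the exceptions were Tpi1 and Gpi1. The same held for 11226 of all 27025 genes with a window, and for 8235 of 17492 protein-coding genes.

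The windows of 6 members are shown because these genes had the smallest p-values of the enzymes and other hypoxia targets tested below. Capitals mark ACGTG or GCGTG on either strand, so that CACGT and CACGC are the same cores read from the other strand; for Ldha and Pdk1, which have 2 start sites, the first listed is given. A match is a description of the letters and not a measured binding site.
Ldha, chr7:46845554-46845803, plus strand: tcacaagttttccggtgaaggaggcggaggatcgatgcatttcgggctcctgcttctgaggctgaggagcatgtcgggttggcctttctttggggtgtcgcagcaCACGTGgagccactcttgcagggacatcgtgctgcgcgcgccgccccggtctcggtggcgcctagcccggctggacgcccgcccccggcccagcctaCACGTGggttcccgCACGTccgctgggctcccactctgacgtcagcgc
Pdk1, chr2:71872974-71873223, plus strand: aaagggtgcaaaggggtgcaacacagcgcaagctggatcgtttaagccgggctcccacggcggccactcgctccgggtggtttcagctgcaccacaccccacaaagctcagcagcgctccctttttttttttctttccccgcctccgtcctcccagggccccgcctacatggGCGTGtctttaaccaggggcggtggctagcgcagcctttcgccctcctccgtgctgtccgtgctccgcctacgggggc
Pfkp, chr13:6648772-6649021, minus strand: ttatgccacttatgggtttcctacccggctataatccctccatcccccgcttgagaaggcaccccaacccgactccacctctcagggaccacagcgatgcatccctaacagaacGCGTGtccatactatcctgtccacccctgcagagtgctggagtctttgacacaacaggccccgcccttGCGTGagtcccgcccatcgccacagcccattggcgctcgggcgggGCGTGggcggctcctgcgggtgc
Bnip3, chr7:138909507-138909756, minus strand: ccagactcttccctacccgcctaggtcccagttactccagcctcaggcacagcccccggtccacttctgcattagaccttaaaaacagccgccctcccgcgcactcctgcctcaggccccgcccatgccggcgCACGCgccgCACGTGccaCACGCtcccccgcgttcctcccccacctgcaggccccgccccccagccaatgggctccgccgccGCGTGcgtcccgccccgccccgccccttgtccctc
Ankrd37, chr8:45999851-46000100, minus strand: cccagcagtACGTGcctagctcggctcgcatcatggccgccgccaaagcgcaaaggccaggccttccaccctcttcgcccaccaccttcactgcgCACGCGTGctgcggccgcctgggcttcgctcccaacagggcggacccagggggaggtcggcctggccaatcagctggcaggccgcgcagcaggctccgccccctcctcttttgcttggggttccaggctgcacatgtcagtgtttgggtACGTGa
Higd1a, chr9:121857797-121858046, minus strand: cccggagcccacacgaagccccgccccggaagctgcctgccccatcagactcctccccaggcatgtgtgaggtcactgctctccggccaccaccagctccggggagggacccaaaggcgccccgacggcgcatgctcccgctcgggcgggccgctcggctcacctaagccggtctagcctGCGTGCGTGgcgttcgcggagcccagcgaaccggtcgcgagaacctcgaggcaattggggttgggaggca
The Ldha window held ACGTG at 5 positions, 4 of them from its 2 CACGTG palindromes. Bnip3 held 5 positions of either core, Ankrd37 held 4, Pfkp 3, Higd1a 2 and Pdk1 1.

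The labels were first checked on Pparg itself. Its transcript cluster (10540897) read 8.79, 8.88, 9.04 and 9.06 on control arrays 1 to 4, and 9.14, 9.19, 9.19 and 8.98 on the arrays labelled Pparg null. The groups overlapped and the labelled-null values were not lower (difference 0.18, exact two-sided permutation p = 0.0857, where 4 against 4 can give no less than 0.0286). Probes that lie beyond the deleted exons cannot test the label, so directions are given for the arrays labelled Pparg null. Array medians lay between 6.93 and 6.96, and the basal epidermal and dermal fibroblast markers averaged 10.64 to 10.78 and 11.75 to 11.94 on all arrays, so both layers of the labelled tissue were present. Xist read 12.10 to 12.27 on control arrays 1 and 4 and labelled-null arrays 3 and 4, and 4.86 to 5.39 on the others. The Y-linked genes Eif2s3y, Kdm5d and Uty ran the other way, so both groups held RNA of both sexes. Labelled-null array 4 lay farthest out on the first principal component of 14704 tested genes off the sex chromosomes (score 21.7). Control array 1 (8.62) and labelled-null array 2 (3.12) also scored above 0. The remaining arrays lay between -9.02 (labelled-null array 3) and -4.44 (control array 3). Limma, over all 15174 tested genes, passed 18 at an adjusted p of 0.05, which is 0.119% of those tested, with 0.00659% higher on the labelled-null arrays and 0.112% lower.

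No member passed that threshold in limma, in either direction, nor one of 0.10, which 0.138% of all tested genes passed. Among the 34 tested members 28 lay above control and 6 below, where 49.7% of all tested genes lay above and 50.3% below. Their median log2 difference was 0.06, against -0.00058 over all tested genes, and single differences ran from -0.06 (Pkm) to 0.23 (Slc2a3), with a smallest adjusted p of 0.9995. In limma 1 member, Pdk1, had an unadjusted p under 0.05, against 3.61% of all tested genes (1.51% higher and 2.1% lower on the labelled-null arrays). A difference of at least 0.1 above control was found for 11 of the 34 members (8.84% of all tested genes), and a difference of at least 0.1 below control for 0 of them (8.28%). The surplus above control leaned on labelled-null array 2: without it 23 members lay above control and 11 below, and the median was 0.03. In that fit 46.96% of all tested genes lay above control, with a median of -0.0049. Control 1 and labelled-null 4 had the highest scores on the first principal component. With both left out, 29 members lay above control and 5 below, where 47.66% of all tested genes lay above.

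**Figure D1:**
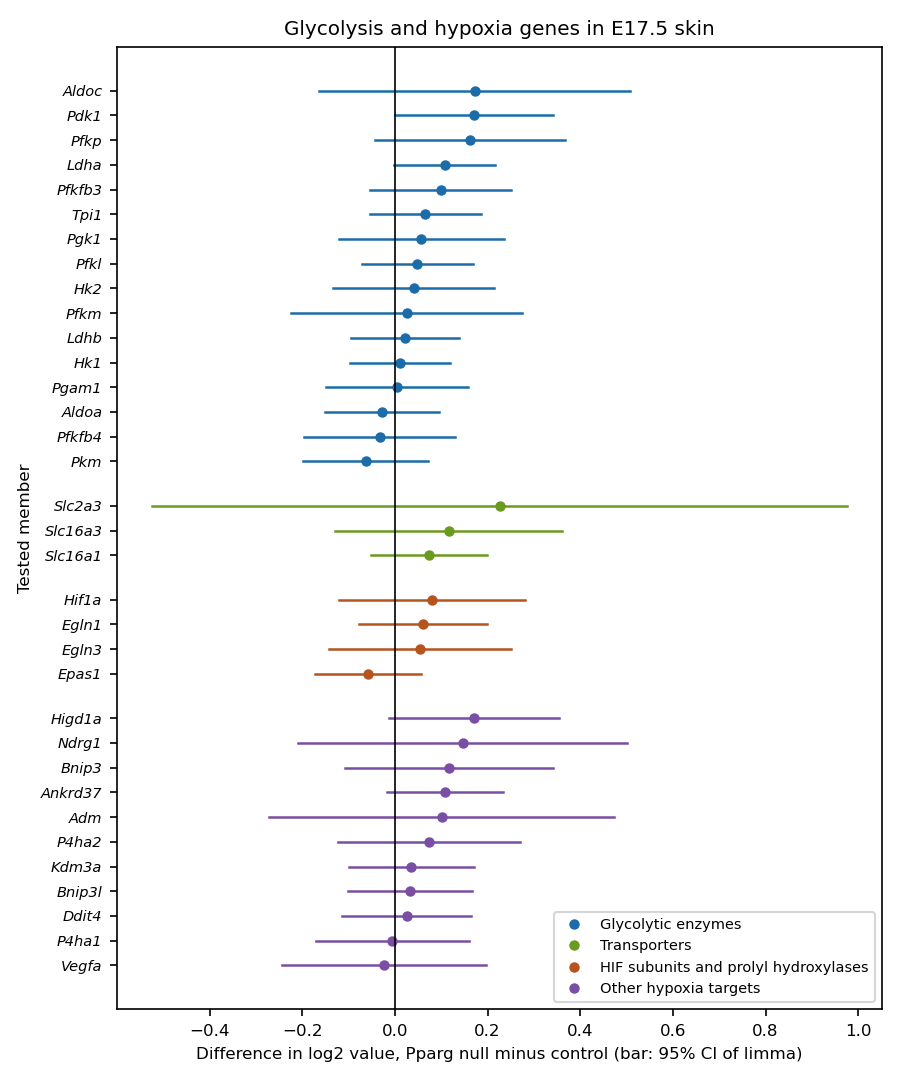
Log2 difference of each of the 34 tested members, arrays labelled Pparg null minus control, as a point with limma's 95% confidence interval as a bar, coloured by role and ordered by size within a role. Most points lie to the right of 0, and every interval but that of Pdk1 spans 0.

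The 16 tested enzymes had a median difference of 0.04, with 13 above control and 3 below. Pdk1 (transcript cluster 10472846), the kinase that shuts pyruvate out of mitochondrial oxidation, read 8.90, 8.91, 8.91 and 8.61 on control arrays 1 to 4 and 8.96, 9.09, 8.94 and 9.02 on the labelled-null arrays. All labelled-null values lay above all control values, by a margin of 0.03, while control array 4 stood well below the other controls. Such separation was found for 1 of 34 members, Pdk1, and for 0.784% of all tested genes in this direction; in the other direction it was 0 of 34 and 1.67%. The mean was 8.83 ± 0.15 in control skin and 9.001 ± 0.067 (SD, n = 4 each), a difference of 0.17 (95% confidence interval 0.00029 to 0.34, limma adjusted p = 0.9995), which shrank to 0.10 without control array 4.

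Ldha (10553301), the lactate dehydrogenase subunit that favours lactate production, read 12.35, 12.33, 12.34 and 12.27 in control skin and 12.35, 12.46, 12.43 and 12.48 on the labelled-null arrays. Labelled-null array 1 lay among the controls and the other labelled-null arrays lay above them. The difference was 0.11 (95% confidence interval -0.00089 to 0.22, limma adjusted p = 0.9995), or 1.08-fold. Ldhb, the subunit that favours the reverse reaction, differed by 0.02 (interval -0.10 to 0.14) on its brighter cluster and by 0.0013 on its other cluster. The log2 distance between Ldha and the brighter Ldhb cluster was 3.92 to 4.11 in control skin. On the labelled-null arrays it was 4.06 to 4.14, and so overlapped.

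The phosphofructokinase step, which commits glucose to glycolysis, was read from 3 subunit genes and 2 regulators. Pfkp, the platelet-type subunit, read 8.68, 8.86, 8.88 and 8.57 in control skin and 8.83, 9.12, 8.78 and 8.92 on the labelled-null arrays. The groups overlapped, with labelled-null array 2 highest and control array 4 lowest (difference 0.16, interval -0.04 to 0.37, and 0.09 without labelled-null array 2 or 0.10 without control array 4). The liver-type subunit Pfkl differed by 0.05 and the muscle-type subunit Pfkm by 0.03. Pfkfb3 makes a fructose bisphosphate that activates this step and differs from its product. This gene read 7.97, 8.08, 7.95 and 7.87 against 7.999, 8.16, 7.95 and 8.16, with overlap (difference 0.10, interval -0.05 to 0.25). Its relative Pfkfb4 differed by -0.03.

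Aldoc, an aldolase isoform, was the most scattered enzyme. It read 8.14, 8.11, 8.21 and 7.99 in control skin and 8.05, 8.51, 7.92 and 8.66 on the labelled-null arrays, so that arrays 2 and 4 of that group were high and array 3 was the lowest of all. The difference of 0.17 (interval -0.16 to 0.51) was 0.05 without labelled-null array 4 and 0.29 without labelled-null array 3. The main aldolase Aldoa differed by -0.03. Tpi1, triosephosphate isomerase, read 11.53, 11.55, 11.38 and 11.44 in control skin and 11.48, 11.56, 11.55 and 11.57 on the labelled-null arrays, with overlap (difference 0.07, interval -0.05 to 0.19, and 0.03 without control array 3).

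The remaining enzymes lay close to control on the row that stood for each. Hexokinases Hk1 and Hk2, which trap glucose in the cell, differed by 0.01 and 0.04. Pgk1 and Pgam1, of the middle of the pathway, differed by 0.06 and 0.00415, and pyruvate kinase, Pkm, by -0.06 (interval -0.20 to 0.07). Several enzymes were read by more than 1 cluster, and the copies did not always match. For Hk1 the brighter cluster (10414661) gave 0.01 and the dimmer cluster (10369541) gave 0.15, with 8.36 to 8.51 in control skin and 8.51 to 8.75 on the labelled-null arrays. For Pkm the brighter cluster gave -0.06 and the other 0.03. Pgk1 had 3 clusters, of which 2 agreed to every digit shown here, and glycolytic genes have many near-identical pseudogenes whose signal these probes may share. Clusters were not placed on the genome. For members with several clusters, Hk1, Bnip3 and Higd1a among them, the brightest row may therefore not be the one that reads the gene itself.

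**Figure D2:**
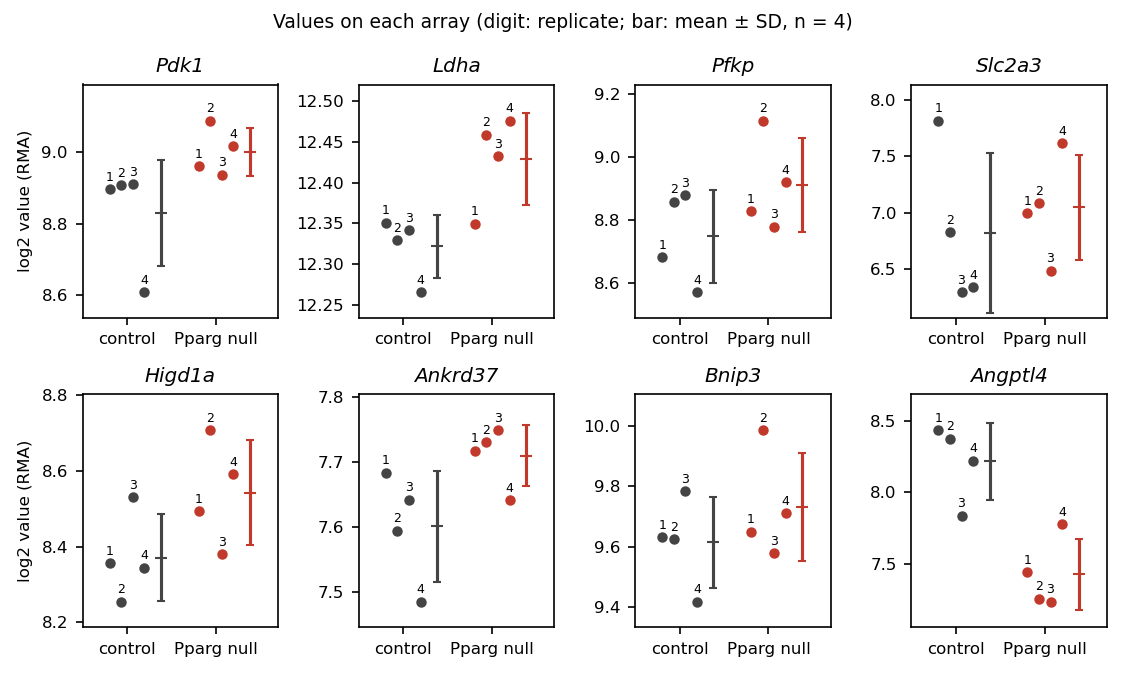
Deposited log2 values of Pdk1, Ldha, Pfkp, Slc2a3, Higd1a, Ankrd37, Bnip3 and Angptl4 on each array, with the replicate number above each point and the group mean ± SD (n = 4) beside the points; each panel has its own axis range. Pdk1 and Angptl4 have groups that do not overlap, in opposite directions, and control array 4 is lowest for Pdk1, Ldha, Pfkp, Ankrd37 and Bnip3.

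All 3 listed transporters lay above control without passing the threshold. Relatives on the wider list described below did not all lean that way. The glucose transporters Slc2a1, at 11.39 in control skin, and Slc2a4 differed by 0.03 and -0.04, and the carrier Slc16a7 by -0.17, each with overlapping groups. Slc2a3, a high-affinity glucose transporter, read 7.82, 6.83, 6.30 and 6.34 in control skin and 6.998, 7.09, 6.49 and 7.62 on the labelled-null arrays. Its spread within groups was far wider than the difference between them (SD 0.71 and 0.46, difference 0.23, interval -0.52 to 0.98), with control array 1 and labelled-null array 4 high. Leaving out 1 array moved this difference between 0.04, without labelled-null array 4, and 0.56, without control array 1. Slc16a1, a lactate and pyruvate carrier, read 9.25, 9.25, 9.22 and 9.22 in control skin and 9.20, 9.43, 9.27 and 9.33 on the labelled-null arrays. The controls were tightly grouped and 3 of the 4 labelled-null arrays lay above them (difference 0.07, interval -0.05 to 0.20, and 0.03 without labelled-null array 2). Slc16a3, the carrier that exports lactate from glycolytic cells, read 8.80, 9.03, 8.85 and 8.84 against 8.90, 9.10, 9.27 and 8.72, with overlap (difference 0.12, interval -0.13 to 0.36, and 0.03 without labelled-null array 3 or 0.21 without labelled-null array 4).

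The oxygen-sensing genes differed by less than 0.1 in either direction. Hif1a, the widely expressed HIF alpha subunit, read 10.64, 10.58, 10.63 and 10.57 in control skin and 10.51, 10.74, 10.55 and 10.94 on the labelled-null arrays. The high value of labelled-null array 4 carried the difference of 0.08, which was -0.0064 without that array. Epas1, the alpha subunit prominent in endothelium, read 9.86, 9.87, 9.89 and 10.03 against 9.86, 9.83, 9.85 and 9.87 (difference -0.06, interval -0.17 to 0.06). Here control array 4 was the highest of all 8 arrays, and without it the difference was -0.019. The prolyl hydroxylase Egln1 read 9.55, 9.68, 9.69 and 9.47 against 9.60, 9.71, 9.69 and 9.63, with a difference of 0.06 (interval -0.08 to 0.20, and 0.02 without control array 4). Egln3, a hydroxylase that is itself induced by HIF, read 9.87, 9.80, 9.93 and 9.75 against 9.74, 10.15, 9.81 and 9.85. Its difference of 0.05 (interval -0.14 to 0.25) turned to -0.03 without labelled-null array 2, the highest array.

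The 11 tested hypoxia targets outside glycolysis had a median difference of 0.07, with 9 above control and 2 below. That median was 0.03 without labelled-null array 2, 0.05 without control array 3, and 0.12 with control 1 and labelled-null 4 both left out. Higd1a (10492860), a mitochondrial protein that tunes respiration, read 8.36, 8.25, 8.53 and 8.34 in control skin and 8.49, 8.71, 8.38 and 8.59 on the labelled-null arrays. The groups overlapped, with labelled-null arrays 1 and 3 below control array 3 (difference 0.17, interval -0.01 to 0.35, limma adjusted p = 0.9995). Its dimmer cluster (10597871) differed by 0.22. Ankrd37, an ankyrin repeat protein and HIF target, read 7.68, 7.59, 7.64 and 7.48 against 7.72, 7.73, 7.75 and 7.64 (difference 0.11, interval -0.02 to 0.23, limma adjusted p = 0.9995). Only labelled-null array 4 lay within the control range.

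Bnip3, a receptor for the removal of mitochondria, read 9.63, 9.62, 9.78 and 9.42 in control skin and 9.65, 9.98, 9.58 and 9.71 on the labelled-null arrays. The groups overlapped, and the difference of 0.12 (interval -0.11 to 0.34) was 0.03 without labelled-null array 2. Its second cluster gave 0.15, again with labelled-null array 2 highest, at 9.32, while the remaining labelled-null arrays read 8.91 to 8.92. The related receptor Bnip3l differed by 0.03 on both of its clusters. Ndrg1, a stress-induced protein of differentiating epithelia, read 10.62, 10.23, 10.05 and 10.03 against 10.25, 10.56, 10.05 and 10.65, with overlap (difference 0.15, interval -0.21 to 0.50, and 0.06 without labelled-null array 4 or 0.28 without control array 1). Control array 1 and labelled-null arrays 2 and 4 were high, which repeats the order of Slc2a3 in part.

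Adm, which encodes the vasodilator peptide adrenomedullin, read 7.71, 7.46, 7.11 and 7.34 in control skin and 7.55, 7.93, 7.17 and 7.37 on the labelled-null arrays. The spread within groups exceeded the difference of 0.10 (interval -0.27 to 0.47), which was -0.04 without labelled-null array 2. The collagen prolyl hydroxylase subunit P4ha2 read 9.12, 9.14, 8.80 and 9.01 against 9.21, 9.15, 8.93 and 9.07, with overlap (difference 0.07, interval -0.12 to 0.27). Without control array 3, the lowest, its difference was 0.0018. P4ha1, the other such subunit, differed by -0.0059, the histone demethylase Kdm3a by 0.04 and the growth-restraining protein Ddit4 by 0.03. Vegfa, the main angiogenic growth factor, differed by -0.02 (interval -0.24 to 0.20), with labelled-null array 4 at 9.18 and the others of its group at 9.56 to 9.57.

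Part of the scatter between arrays was shared by some of the members. Of the 34 tested members, 14 had their highest value on labelled-null array 2 and 9 on labelled-null array 4. On control array 4, 11 had their lowest value. How often all tested genes had their extremes on these arrays was not counted, so these counts cannot be read as a trait of the members. Averaged over the 34, the deviation from the mean of all arrays was 0.01, 0.00256, -0.04 and -0.11 on control arrays 1 to 4 and -0.0058, 0.13, -0.04 and 0.05 on the labelled-null arrays. Labelled-null arrays 1 and 3 thus lay within the control range. After group means were taken out, 9 members followed the mean of the other members over 8 arrays with r over 0.7. Among them were Pfkfb3 (0.84), P4ha1 (0.83), Pdk1 (0.81) and Bnip3 (0.81). The median r over all 561 pairs of members was only 0.21, and 6 members had r below 0 with the mean of the others. The same was not computed for other genes. Without the 2 arrays farthest from the median, r was 0.79 for Pfkfb3, 0.56 for P4ha1, 0.86 for Pdk1 and 0.52 for Bnip3. For these members the 2 arrays were control array 4 and labelled-null array 2. Another pair was left out for Pfkm, Slc16a3, Vegfa and Adm. In all, 4 members had r over 0.7 without their 2 arrays. Epas1 had the lowest r with the mean of the others (-0.66, and -0.60 without control array 4 and labelled-null array 2). These correlations describe values that share their arrays, and anything that shifts an array enters all of them.

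**Figure D3:**
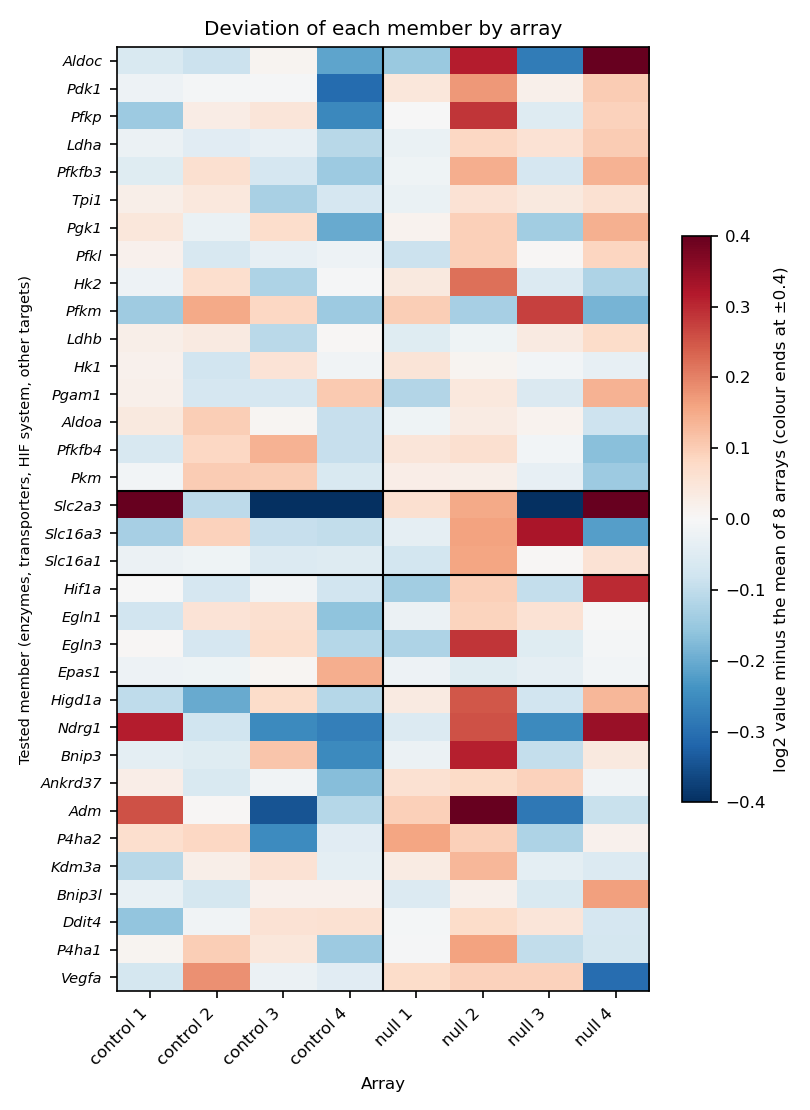
Log2 value of each of the 34 tested members minus its mean over 8 arrays, by array, with members grouped by role; red is above the mean, blue below, and the colour ends at 0.4 in either direction. The column of labelled-null array 2 is mostly red (mean 0.13) and that of control array 4 mostly blue (mean -0.11).

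Markers of other tissues in the skin varied on the same arrays, and their part in the members' values was not tested. In bulk RNA, fewer cells of a type and less RNA per cell cannot be told apart. The 10 skeletal muscle markers, all tested, averaged 10.53 to 10.80 in control skin and 10.39 to 10.97 on the labelled-null arrays, with 3 above control, 7 below and 0 past the threshold in limma (0 at an unadjusted p under 0.05). Pfkm, chosen after its values were seen, followed them: it was highest on labelled-null array 3 (9.94), where the muscle mean was highest, and lowest on labelled-null array 4 (9.48), where that mean was lowest. Of 11 erythroid markers 5 could be tested, and the listed globins had no row of their own. Of the 5 tested, 4 lay above control and 0 passed the threshold in limma. Car1, which was dim at 5.54 to 5.94, and Car2 had an unadjusted p under 0.05. The mean of the 5 was 6.62 to 6.96 in control skin and 6.78 to 7.22 on the labelled-null arrays. Labelled-null array 2, the array with the highest member mean, was the lowest of its group. The 8 endothelial markers, all tested, averaged 9.29 to 9.43 against 9.34 to 9.40. All 9 tested of 10 white adipocyte markers had a difference below 0, and 4 of them (Cd36, Fabp4, Lpl and Aqp7) fell past the threshold, with means of 7.98 to 8.21 against 7.491 to 7.597, and Adipoq lay under the brightness filter. All 8 hair shaft and inner root sheath markers had a difference below 0 (median -0.37), with 0 past the threshold in limma and 3 at an unadjusted p under 0.05. Their mean was 6.87, 7.34, 7.66 and 7.35 in control skin and 6.84, 6.97, 7.22 and 6.43 on the labelled-null arrays. It was lowest within each group on control array 1 and labelled-null array 4, the arrays on which Slc2a3 and Ndrg1 were highest in their groups. With group means taken out, its r over the 8 arrays was -0.92 with Slc2a3, -0.84 with Ndrg1 and 0.87 with Ddit4. The mean of the 6 tested suprabasal epidermal markers, 12.03 to 12.28 in control skin and 12.12 to 12.43 on the labelled-null arrays, was highest on labelled-null array 4, where Vegfa was lowest (r = -0.91) and Bnip3l highest (r = 0.89). Of 6 mast cell markers 5 lay below control, with means of 9.79 to 10.10 against 9.58 to 9.79, and 0 passed the threshold in limma (2 at an unadjusted p under 0.05). The largest differences were those of Tpsab1 (-1.01) and Mcpt4 (-0.50), and control array 2, at 6.14, lay below every labelled-null array for Tpsab1. Cpa3, Cma1, Kit and Tpsb2 differed by -0.10, -0.06, -0.02 and 0.03. The correlations with hair and suprabasal markers were picked from those of all tested members with every marker list, after the values were seen. Other lists gave r of similar size for some of these members. Ndrg1 gave -0.86 with skeletal muscle markers, Slc2a3 -0.84 with white adipocyte markers and Vegfa 0.87 with dermal fibroblast markers. All of these correlations, too, are descriptions of values from the same arrays.

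**Figure D4:**
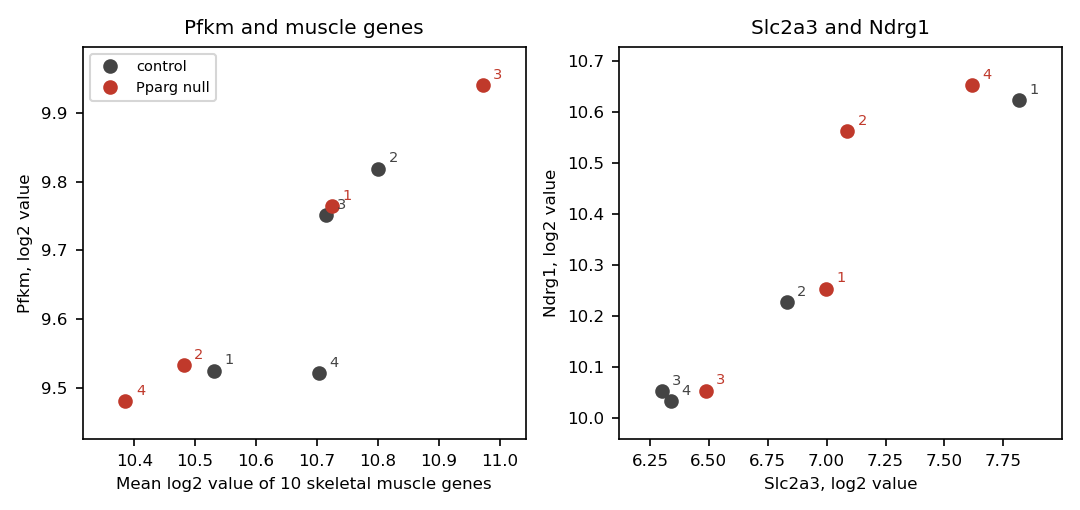
Left, log2 value of Pfkm against the mean log2 value of 10 skeletal muscle markers; right, Ndrg1 against Slc2a3; each point is 1 array, with its replicate number, in grey for control and red for Pparg null. Pfkm is highest on labelled-null array 3 and lowest on labelled-null array 4, the ends of the muscle axis, and control array 1 and labelled-null array 4 lie at the high end of both genes in the right panel.

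Other genes of both pathways were counted from lists wider than the members. Of 36 further genes of glucose metabolism, 31 were tested, with 17 above control, 14 below, a median difference of 0.00959 and 0 past the threshold in limma (0 at an unadjusted p under 0.05). The smallest p-values were those of Dlat, a core subunit of pyruvate dehydrogenase (-0.12), Bpgm, which makes the bisphosphoglycerate that loosens oxygen from haemoglobin (0.13), and Adpgk, an ADP-dependent glucokinase (-0.12). The pyruvate dehydrogenase kinases Pdk2, Pdk3 and Pdk4 differed by -0.02, 0.10 and 0.12, each with overlapping groups. Of 44 further hypoxia genes, 42 were tested, with 29 above control, 13 below, a median of 0.03 and 0 past the threshold in limma (4 at an unadjusted p under 0.05). Ero1a, an oxidase of the endoplasmic reticulum, differed by 0.19 and the transcriptional repressor Bhlhe40 by 0.16.

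Angptl4 went the other way. It encodes an inhibitor of lipoprotein lipase and is known as a target of both HIF and the PPAR receptors. It read 8.44, 8.38, 7.84 and 8.22 in control skin and 7.44, 7.25, 7.23 and 7.78 on the labelled-null arrays. Every labelled-null value lay below every control value, with means of 8.22 ± 0.27 and 7.42 ± 0.25 (SD, n = 4 each). The difference of -0.79 (interval -1.13 to -0.46), or 1.73-fold lower, missed the threshold in limma (adjusted p = 0.217). With 1 array left out that adjusted p ran from 0.0637 to 0.738, and with array weights it was 0.0467.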

How the data were processed

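Total RNA of 8 full-thickness skin samples was amplified with a whole-transcript kit and hybridised to 1 single-colour array each, per the labels' protocols. The deposited values are log2 intensities; the submitters' processing notes name RMA and Affymetrix Expression Console, with versions and annotation build not given in the sources used here. RMA corrects background, quantile-normalizes and summarizes probes per transcript cluster, so a shift shared by all genes cannot be seen.

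The table held 35556 rows; the platform annotation gave 1 symbol to 21789, several to 1621 and listed none for 12146. Symbols were updated by gene ID for 21698 rows. Rows above the 30th percentile of their array on at least 4 of 8 arrays were tested (15174 of 19938 genes) with limma 3.58.1 in R 4.3.3, lmFit and eBayes, two-sided, without covariates, adjusted by Benjamini-Hochberg at 0.05; the step was tested on simulated data. Precision is limited by 4 arrays per group. Members and lists were chosen with earlier results of these data known. Values on every array are given for 6 enzymes, 3 transporters, 4 oxygen-sensing genes and 6 other targets with the smallest p in their role, and the 3 genes with the smallest p of each wider list are named, of which Angptl4 is given in full after its values were seen. Pdk2, Pdk3 and Pdk4, Slc2a1, Slc2a4 and Slc16a7, Vegfa and Pfkm were also singled out after their values were seen. So were the printed correlations of members with marker lists and the single erythroid and mast cell markers.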

Additional observations from a re-analysis of the deposited data

Results flagged for a closer look

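A single array stood far from its group in 3 of the 82 sets of 4 values examined, where chance gives about 1 in 20, or 4.1; the measure is the distance to the nearest array divided by the range of the group. For Pdk1 it was 0.953, since control array 4 read 8.61 while control arrays 1 to 3 read 8.90 to 8.91. Epas1 gave 0.837, again through control array 4 (10.03, with 9.86 to 9.89 elsewhere in the group). Vegfa gave 0.953 through labelled-null array 4, which read 9.18 beside 9.56 to 9.57.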

How the results depend on the processing

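No member passed the limma threshold under any of the 10 other settings tried (other brightness filters, centring, cyclic loess, a trended robust prior, array weights, the replicate block, averaged clusters, Xist as a covariate, and leaving out both control 1 and labelled-null 4), at an adjusted p of 0.10, or in the 8 fits with 1 array left out. The count over all genes, 18, was 1 with the replicate block and 11 with Xist as a covariate, and 3 to 15 with 1 array left out. Shared replicate numbers were no sign of pairing (r of same-numbered deviations -0.31, 0.20, 0.05 and -0.03). With each array centred on its median, 26 members lay above control, where 42.8% of all tested genes did. Of the 34 members, 18 kept their sign in every fit, as did 16 of the 19 given on every array. The enzymes and other targets among those 19 were picked for a small p on the same arrays, which favours a kept sign. The share of all tested genes that kept their sign was not counted. Without 1 array the difference ranged from -0.0064 to 0.14 for Hif1a, -0.034 to 0.10 for Egln3 and -0.042 to 0.21 for Adm. The median of the enzymes ranged from 0.03 to 0.06, and that of the other hypoxia targets from 0.03 to 0.11.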
